A study of Mus musculus with 2 samples.

Results

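Retnla and Retnlg, the resistin-like alpha and gamma genes, were 2 of the 31053 genes counted in droplet single-cell RNA sequencing of mouse lung, and both were found by symbol. They were chosen with earlier results of these data known: the high Retnla of the epithelium in one genotype and the high Retnlg of neutrophils. Their levels are therefore descriptions. The samples were total lung cells of mice aged 5 weeks, pooled from 3 mice per library, with 1 library per genotype. The Cre library came from Nkx2.1 Cre;Lkb1f/f mice, in which a Cre recombinase under Nkx2.1, a transcription factor of the lung epithelial lineage, acts on floxed Lkb1 alleles. The control library came from Lkb1f/f mice, which carry the same floxed alleles and no Cre. Lkb1, whose gene symbol is Stk11, encodes a kinase that activates AMPK and related kinases.

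Resistin-like proteins are small, secreted, cysteine-rich proteins. Resistin-like alpha is best known in the lung as a product of airway epithelium, alveolar type II cells and macrophages exposed to the type 2 cytokines IL-4 and IL-13, which signal through the receptor chain IL-4Ra and the transcription factor STAT6, and it was also described as a factor induced by hypoxia. Resistin-like gamma is known in mice as a transcript of bone marrow and neutrophils. Rodents also carry Retnlb, expressed chiefly by goblet cells of the gut, and Retn, which encodes resistin itself, a product of adipose tissue in mice.

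Both members lie on mouse chromosome 16, on the plus strand, in the GENCODE M21 annotation of GRCm38. Retnla (ENSMUSG00000061100) spans chr16:48842551-48844461 and Retnlg (ENSMUSG00000022651) spans chr16:48872621-48874496, and each has 1 annotated transcript of 4 exons. The 2 genes are 28159 bases apart, and Retnlb lies 23658 bases before Retnla at chr16:48816856-48818892, while Retn is on chromosome 8. The 250 bases before each RefSeq start are shown because these neighbouring genes have similar promoters and were abundant in different cells. They are from RefSeq on GRCm38.p6, chr16:48842359-48842608 for Retnla and chr16:48872358-48872607 for Retnlg, both on the plus strand, and capitals mark matches to the STAT6 motif (TTC, then 4 bases of any kind, then GAA) and to the C/EBP letters TTGCNNAA, each searched on both strands.

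Retnla: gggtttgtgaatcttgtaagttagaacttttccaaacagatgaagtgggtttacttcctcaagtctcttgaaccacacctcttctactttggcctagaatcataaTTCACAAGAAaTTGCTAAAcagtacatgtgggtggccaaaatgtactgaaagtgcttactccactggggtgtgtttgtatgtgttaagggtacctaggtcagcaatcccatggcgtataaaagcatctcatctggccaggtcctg
Retnlg: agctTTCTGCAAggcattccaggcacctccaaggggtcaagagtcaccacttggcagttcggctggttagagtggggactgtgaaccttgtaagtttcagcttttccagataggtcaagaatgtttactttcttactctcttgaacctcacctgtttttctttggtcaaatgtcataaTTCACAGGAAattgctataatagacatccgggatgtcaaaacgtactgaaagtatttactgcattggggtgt

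A STAT6 match stood in each promoter, TTCACAAGAA at 145 to 136 bases before the Retnla start and TTCACAGGAA at 72 to 63 bases before the Retnlg start. These letters occurred in 5.85% of the 32851 promoter windows of the same length, from 27025 genes. In Retnla the C/EBP match TTGCTAAA lay 1 base after the STAT6 letters, at 134 to 127 bases before the start, whereas the only C/EBP match of Retnlg was on the minus strand at 246 to 239 bases, and 9.56% of windows held one. Positions are counted from the RefSeq starts, which differ from the GENCODE starts given above, and the unlike STAT6 distances depend on that choice. The STAT6 letters lie at chr16:48842464-48842473 for Retnla and chr16:48872536-48872545 for Retnlg. The GENCODE starts, 48842551 and 48872621, follow them at nearly equal distances. The Retnla window runs past the GENCODE start of its gene, and the Retnlg window ends before that of its own. Neither window held TGACG or ACGTG, the cores of the cAMP and hypoxia response elements, which occurred in 17.8% and 16.6% of windows. A letter match is not a binding site, and binding was not measured.

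Over 178 aligned columns the promoters were identical at 138 (77.5%), with 37 mismatches and 3 gap columns, the Retnla bases from 250 to 74 before the start lining up with the Retnlg bases from 176 to 1. The annotated transcripts, 599 and 593 bases long, were 82.8% identical, with a longest shared run of 49 bases. In the last 400 bases, where 3' tags mostly fall, none of the 371 words of 30 bases of Retnla occurred in Retnlg, and 8 of its 381 words of 20 bases (2.1%) did. How reads that fit both genes were treated is not given in the sources used here, so counts of a low member beside a very high one are uncertain.

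Each captured transcript carries a unique molecular identifier (UMI), and UMIs are what was counted. There were 81598779 UMIs on 16821 barcodes in the Cre library, and 74219499 UMIs on 13587 barcodes in the control library. After filters, 14675 Cre cells with a median of 3250 UMIs and 12455 control cells with a median of 3611 UMIs were used. Cells were put into classes by marker genes, which left 11.7% of Cre cells and 9.88% of control cells without a class. A level is the sum of a gene's UMIs in a class, as counts per 1000000 UMIs of that class (CPM), and intervals are 95% intervals that cover counting error only. With 1 library per genotype there was no test, and genotype cannot be told apart from the mice pooled or the library. Stk11 stood at 29.5 CPM (26.8 to 32.4) in Cre alveolar type II (AT2) cells, against 49.2 CPM (45.6 to 53.0) in control AT2 cells, and 3' tags may lie outside the deleted part, so this level does not check the deletion. The 2 libraries had 68 barcodes in common.

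Retnla was the more abundant member in the Cre library and Retnlg in the control library. Over all kept cells Retnla had 401527 UMIs (5390 CPM) in the Cre library, against 17986 UMIs (260.3 CPM) in the control library. Retnlg had 12244 UMIs (164 CPM) in the Cre library, against 64005 UMIs (926 CPM) in the control library. Cells with 10 or more Retnla UMIs numbered 1770 in the Cre library and 106 in the control library, and cells with 10 or more Retnlg UMIs numbered 312 in the Cre library and 1087 in the control library. Only 15 Cre cells and 7 control cells had 10 or more UMIs of both.

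A threshold of 10 UMIs per cell was used because RNA free in the droplets gives every cell some UMIs of an abundant transcript. B and T cells, which should lack both genes, showed that background. In the Cre library 29.8% of 2803 B and T cells had a Retnla UMI, at 146 CPM, but only 4 had 10 or more. In the control library 1.58% of 2840 B and T cells had a Retnla UMI, at 4.50 CPM, and 0 had 10 or more. Retnlg was found in 0.963% of Cre B and T cells at 5.41 CPM, against 4.79% of control B and T cells at 17.4 CPM, with 0 Cre and 2 control cells at 10 or more. The median depths of these cells were 2316 UMIs in the Cre library and 3641.5 UMIs in the control library. Cells at or above the threshold held 98.0% of all Retnla UMIs in the Cre library and 95.8% in the control library. For Retnlg they held 77.8% in the Cre library and 93.4% in the control library.

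**Figure D1:**
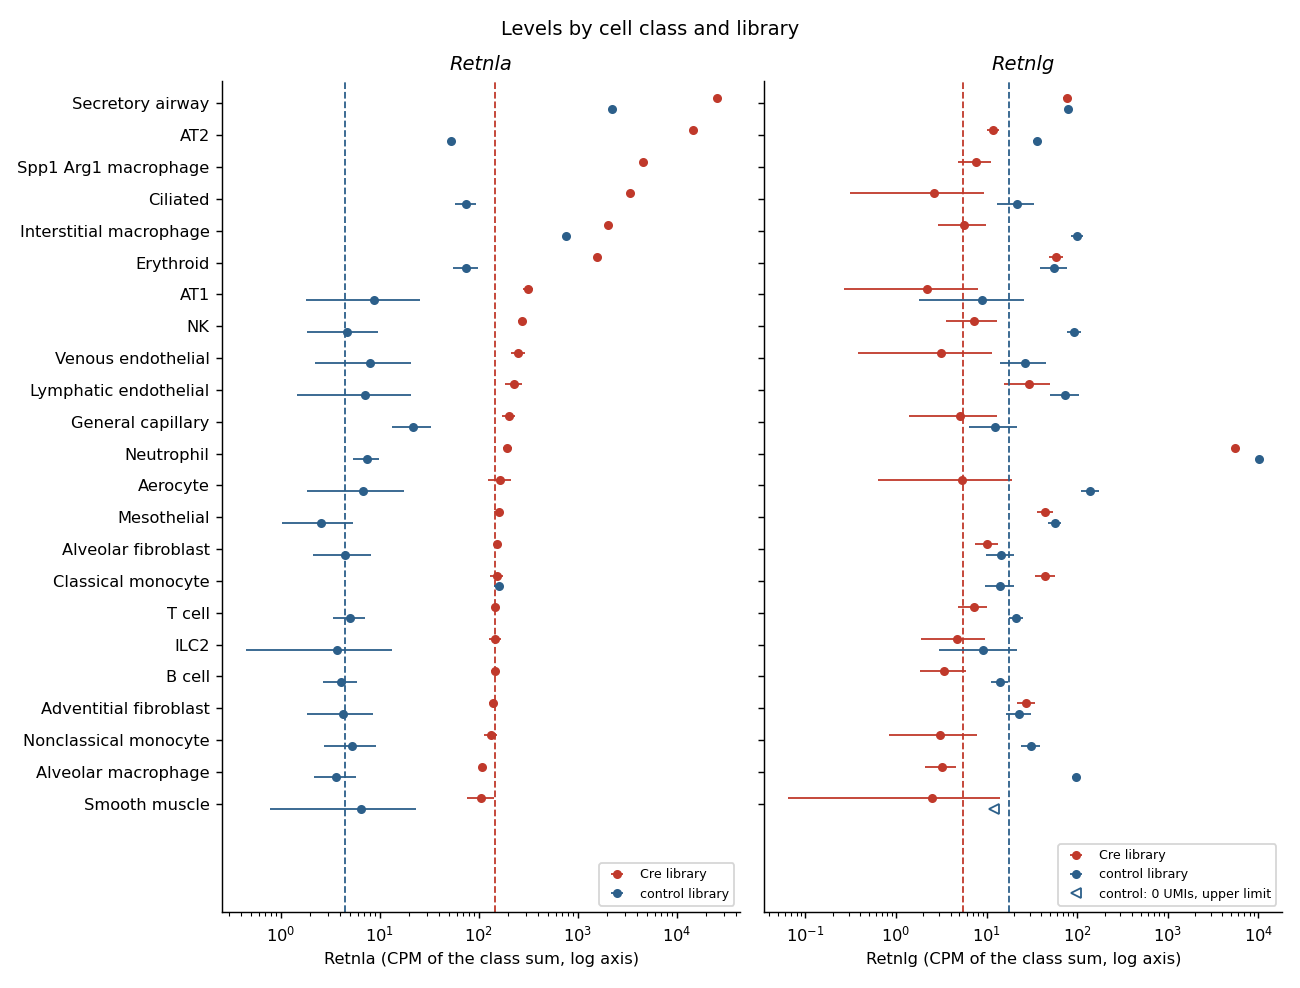
Level of Retnla (left) and Retnlg (right) in each cell class, as CPM of the class sum on a log axis, with the Cre library in red and the control library in blue. Points are class sums with 95% Poisson intervals, dashed lines are the B and T cell levels of each library (146 CPM in Cre and 4.50 CPM in control for Retnla), and most classes sit near those lines while epithelial and macrophage classes stand above them for Retnla and neutrophils for Retnlg.

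In AT2 cells, which make lung surfactant, Retnla was at 14766 CPM (14704 to 14828) in the Cre library, against 53.0 CPM (49.3 to 56.9) in the control library, a ratio of 279 (260 to 300). With 5 CPM added to each level, its Cre over control ratio was the highest of the 11285 genes compared in these cells. Of those genes 6.53% were at least 2-fold higher without that addition. Retnla was the 5th most abundant gene of Cre AT2 cells and number 1968 in control AT2 cells. Of 1803 Cre AT2 cells, 1167 (64.7%, 62.5 to 66.9) had 10 or more Retnla UMIs, against 12 of 1469 control AT2 cells (0.817%, 0.423 to 1.42). The Cre cells had a median of 32 Retnla UMIs and a highest value of 2023, against a median of 0 and a highest value of 194 in control cells. The control level was 11.8 times (9.0 to 15.7) that of control B and T cells.

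Retnla was not uniform within the Cre AT2 cells. There were 187 cells with 0 UMIs, 449 with 1 to 9, 621 with 10 to 99 and 546 (30.3%) with 100 or more, and the tenth of cells with most Retnla UMIs held 54.2% of them. The threshold cut a continuous range: 70 Cre AT2 cells had 7 to 9 UMIs and 44 had 10 to 12, against 5 and 2 control AT2 cells. With each cell thinned to 1000 UMIs, 74.9% of Cre AT2 cells and 2.82% of control AT2 cells had a Retnla UMI, against 89.6% and 11.6% before thinning, with 68 and 88 shallower cells left out. The high level was found in each AT2 cluster with 50 or more cells in both libraries: 13839 CPM in Cre against 60.6 CPM in control in cluster 0, 17147 CPM against 9.88 CPM in cluster 13, and 27956 CPM against 51.7 CPM in cluster 28, whose Cre cells had a median depth of only 1032 UMIs. In cluster 13, 0 of 133 control cells reached 10 UMIs, which allows a share of up to 2.74%. Cre AT2 cells in which a Sox9 UMI was found (835 cells), Sox9 being a transcription factor of distal lung progenitors, had 18891 CPM of Retnla, and the other 968 had 10332 CPM, with 70.5% and 59.7% of cells at 10 or more UMIs and median depths of 8539 and 7483.5 UMIs. A Sox9 UMI was found in 4 control AT2 cells.

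Secretory airway cells, the club and goblet cells of the bronchial lining, had the highest Retnla in both libraries. The level was 25416 CPM in 238 Cre cells (25283 to 25548), against 2226 CPM in 186 control cells (2189 to 2263), a ratio of 11.4 (11.2 to 11.6). With 5 CPM added to each level, the ratio ranked 12 among the 7900 genes compared. Of those genes 23.4% were at least 2-fold higher in Cre without that addition. In these classes 188 Cre cells (79.0%) and 70 control cells (37.6%) had 10 or more UMIs, and 132 (55.5%) and 34 (18.3%) had 100 or more. The median was 147.5 UMIs in Cre cells and 3 in control cells, and the highest values were 8058 and 944, at median depths of 24019.5 and 39314.5 UMIs. Control airway cells thus carried Retnla well above free RNA, at 495 times (382 to 654) the level of control B and T cells. They held 79.0% of all control Retnla UMIs, whereas the Cre airway cells held 35.3% and the Cre AT2 cells 54.9% of the Cre total.

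In both libraries airway cells rich in the gel-forming mucin transcript Muc5b had more Retnla than the rest. Cells with 10 or more Muc5b UMIs had 33927 CPM of Retnla in the Cre library (125 cells) and 5734 CPM in the control library (32 cells), with 92.8% and 90.6% of cells at 10 or more Retnla UMIs and median depths of 28001 and 51597.5 UMIs. Cells with fewer Muc5b UMIs had 7867 CPM in the Cre library (113 cells) and 1058 CPM in the control library (154 cells), with 63.7% and 26.6% of cells at the threshold and median depths of 11685 and 33413 UMIs. The cells rich in Muc5b were also the deeper ones in both libraries, and the part of depth in the shares was not tested. The Cre level was higher in both kinds of cell.

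**Figure D2:**
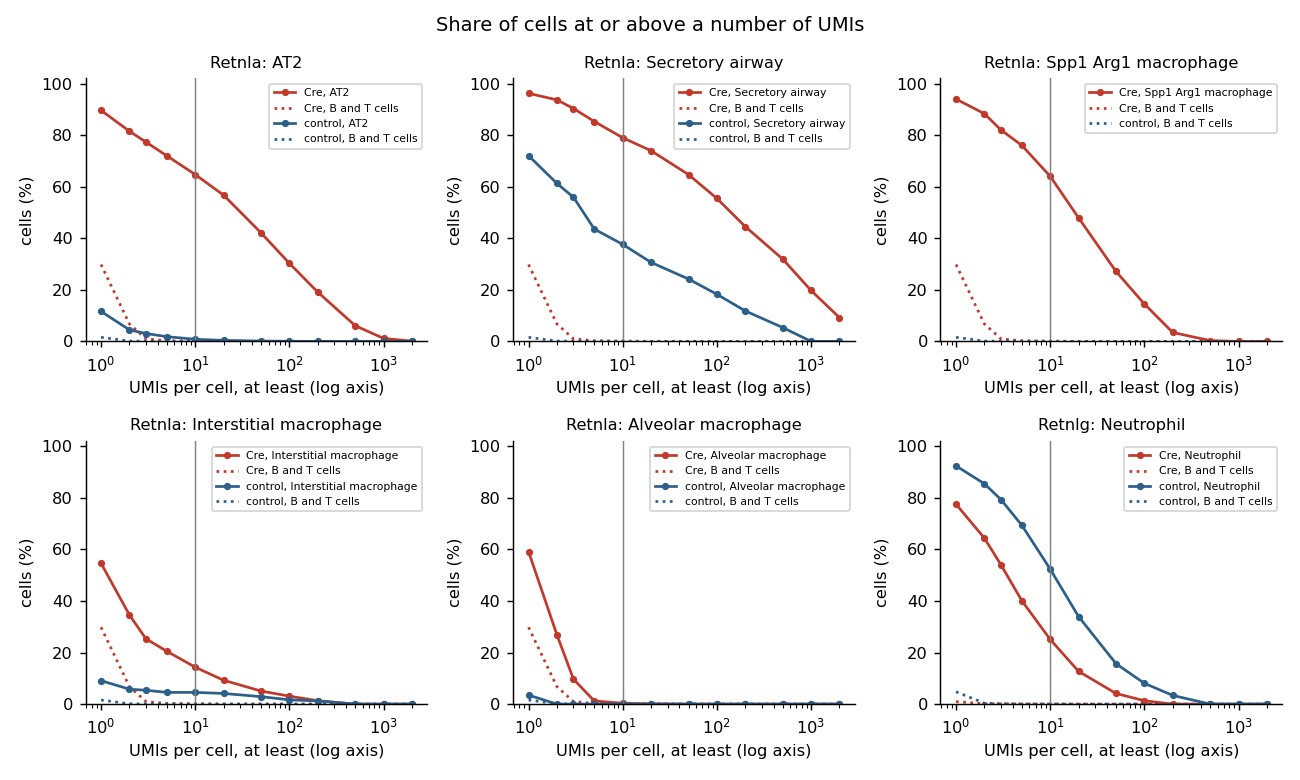
Share of cells (percent, vertical axis) with at least a given number of Retnla or Retnlg UMIs (horizontal log axis), for 6 pairs of gene and class, with Cre in red, control in blue, the B and T cells of each library dotted, and a grey line at 10 UMIs. Cre AT2 (64.7%) and Spp1 Arg1 macrophages (64.0%) stay far above the B and T cell curve at 10 UMIs, alveolar macrophages (0.334%) lie above that curve at 1 and 2 UMIs and near it at 10, and for Retnlg the Cre neutrophil curve lies below the control one.

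Among macrophages, Retnla was abundant in the class defined by Spp1 and Arg1, in interstitial macrophages to a lesser degree, and no higher per UMI counted than in B and T cells in alveolar macrophages. The Spp1 Arg1 macrophages were found in the Cre library only (317 Cre cells and 0 control cells), so they have no control value. They had 4601 CPM of Retnla (4527 to 4676), 31.5 times (29.7 to 33.5) the level of Cre B and T cells, and 203 cells (64.0%) had 10 or more UMIs, with a median of 18 and a highest value of 948. They had 4191 Retnla UMIs per 1000 UMIs of Sftpc, the most abundant AT2 transcript and so a marker of free AT2 RNA, against 197 in Cre B cells.

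Interstitial macrophages, which carry the complement transcripts C1qa, C1qb and C1qc, had 2045 CPM of Retnla in 454 Cre cells, against 772 CPM in 242 control cells, a ratio of 2.65 (2.49 to 2.82), and 4.26% of the 6847 genes compared there were at least 2-fold higher. The UMIs were concentrated in few cells: 65 Cre cells (14.3%) and 11 control cells (4.55%) had 10 or more, while 206 Cre and 220 control cells had 0. In the control library 7 of those cells had 10 to 99 UMIs and 4 had 100 or more, up to 339, and none had 7 to 12, so that the few high cells stood apart from the rest. Within cluster 14 alone the levels were 1885 CPM in 402 Cre cells and 894 CPM in 220 control cells. A further 29 Cre interstitial macrophages fell into cluster 23, the cluster of the Spp1 Arg1 macrophages, and had 6122 CPM.

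Alveolar macrophages had 107.5 CPM of Retnla in the Cre library, against 3.64 CPM in the control library. These levels were 0.736 times (0.675 to 0.802) and 0.811 times (0.449 to 1.40) those of the B and T cells of the same library, and 3 of 899 Cre and 0 of 514 control cells had 10 or more UMIs. Per cell the values were higher than in B and T cells: at a median depth of 9540 UMIs, against 2316 UMIs in Cre B and T cells, 59.2% and 26.9% of Cre alveolar macrophages had at least 1 and 2 Retnla UMIs, against 29.8% and 6.78% of Cre B and T cells. Sftpc was higher per cell too, at a mean of 4.88 UMIs in Cre alveolar macrophages and 1.86 in Cre B and T cells. Retnla UMIs per 1000 Sftpc UMIs were 216 in Cre alveolar macrophages and 227 in Cre B and T cells, and 6.94 and 6.75 in those of the control library. The ratio between the libraries was 29.5-fold in alveolar macrophages and 35.6-fold in B cells. With classes taken from Leiden clusters the Cre level was 573 CPM, because 33 cells gated as AT2 that fell into the macrophage clusters held 4812 of 5899 Retnla UMIs there.

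Most other classes followed the same background. Over the 17 other Cre classes with 50 or more cells, among them alveolar type I cells, natural killer cells, fibroblasts, capillary cells and neutrophils, Retnla was between 0.6 and 2.4 times the Cre B and T cell level. Classical monocytes stood at 152 CPM in the Cre library and 159 CPM in the control library, and 1 control cell with 359 UMIs held nearly all of the 363 control UMIs. Ciliated cells had 3415 CPM in Cre, against 74.0 CPM in control, but only 6 of 68 Cre and 2 of 93 control cells had 10 or more UMIs, the highest Cre cell holding 1854 of the 2633. Erythroid barcodes had 1572 CPM in Cre, against 74.6 CPM in control. Their Sftpc stood at 13132 CPM in Cre and 14063 CPM in control, above the 735 CPM and 747.5 CPM of B cells, and the part of AT2 RNA in their Retnla was not tested.

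The genes whose levels ran most like Retnla over 44 class sums (22 classes in each library) were Chia1, Cxcl5, Slc26a4, Ehf, Gclc and Chil4, with Pearson correlations of log2 CPM between 0.67 and 0.69 among 11002 genes. The sums share library, depth and free RNA, so these are descriptions. Chia1 encodes acidic mammalian chitinase, Chil4 a chitinase-like protein, Slc26a4 the anion exchanger pendrin, Cxcl5 a neutrophil-attracting chemokine, Ehf an epithelial transcription factor and Gclc the catalytic subunit of glutathione synthesis. Of these 6 genes, 3 and 4 were also among the top 6 with pseudocounts of 1 and 20 CPM in place of 5, and 2 with Spearman correlation.

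Within Cre AT2 cells, 901 cells above and 902 cells at or below the median Retnla level (26056 and 1211 CPM, median depths of 8592 and 7400.5 UMIs) were compared. Of 2502 genes, 22 were higher by 2-fold or more in the high-Retnla cells and 12 were lower by as much. Chia1 was at 1520 CPM in the high cells and 166 CPM in the low cells (9.15-fold, 8.60 to 9.73), Slc26a4 at 436 and 50.9 CPM (8.56-fold), and Cxcl5 at 146 and 22.0 CPM (6.64-fold). Pigr, the transporter of polymeric immunoglobulins across epithelium, was 5.64-fold higher and Tmem213 5.30-fold higher. Scgb1a1, the main secretoglobin of club cells, was at 5165 CPM in the high cells and 1373 CPM in the low cells. Chia1, Slc26a4 and Cxcl5 were thus named both across classes and within Cre AT2 cells. The class sums include these same cells, so the lists are not independent. Lower in the high-Retnla cells were Col1a2, Col3a1 and Mgp, which are stromal transcripts, and Ctss, Spp1 and Chil3, which are macrophage transcripts, between 3.58-fold and 6.72-fold. The part of doublets and free RNA in these lower genes was not tested. With only the 451 highest and 451 lowest cells compared, 4 of the 6 leading higher and 3 of the 6 lower genes recurred.

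**Figure D3:**
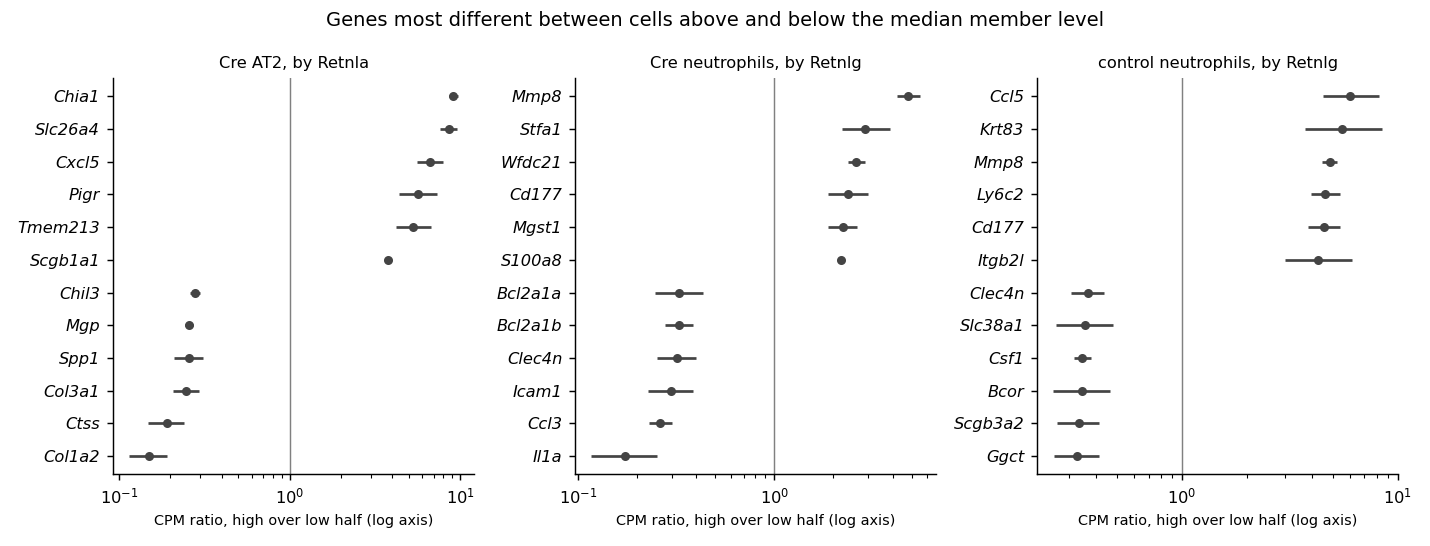
Ratio of CPM (log axis) between cells above and below the median level of the member gene, for the 6 genes with the highest and the 6 with the lowest ratio in Cre AT2 cells (by Retnla), Cre neutrophils and control neutrophils (by Retnlg). Bars are 95% counting intervals; Chia1 and Slc26a4 lead in Cre AT2 cells (9.15 and 8.56), and Mmp8 and Cd177 are higher in the high-Retnlg neutrophils of both libraries.

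The same split of secretory airway cells, made after the values were seen, gave mucus genes. In the 119 Cre cells above the median, Fcgbp, which encodes a mucus-associated protein, was at 310 CPM and in the 119 below it at 36.2 CPM (8.56-fold), and Muc5ac, the inducible gel-forming mucin, at 83.8 and 10.9 CPM (7.71-fold). In the 93 control cells above the median, Clca1, a goblet cell protease, was at 90.8 CPM and in the 93 below it at 0 CPM, Bpifb1 was 33.8-fold higher, Muc5b 13.9-fold, and Tff2, a trefoil peptide, 11.2-fold. A second split of the Cre airway cells took only the 60 highest and the 60 lowest in Retnla. Of the 6 leading higher and 6 leading lower Cre genes, 1 and 2 were also named by it. In control airway cells, with 47 high and 52 low cells, 6 and 4 were. The genes named in Cre airway cells thus depend on where the split is made. Ltf differed in opposite directions, 6.67-fold higher in the high-Retnla Cre airway cells and 2.94-fold lower in the high-Retnla control airway cells. In interstitial macrophages with 10 or more Retnla UMIs, a split also made after the values were seen, Arg1 was at 767 CPM in 65 Cre cells, against 129 CPM in the other 389, and Rnase2a was at 900.5 CPM, against 86.0 CPM. The Cre interstitial macrophages included the 29 cells of cluster 23, the Spp1 Arg1 macrophage cluster, which had 0 control cells. Arg1 and Rnase2a are among the leading genes of that cluster, and its part in this split was not tested. In the control library Mucl1 was at 4130 CPM in the 11 high cells and 0 CPM in the other 231. Hal, histidine ammonia-lyase, was higher in the high cells of both libraries, 4.98-fold in Cre and 4.44-fold in control. Slpi, Saa3, Thbs1 and Alox15 were lower in the high cells of both.

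Of 20 other genes listed as induced by IL-4 and IL-13, most of those with enough UMIs were higher in the Cre epithelium. In AT2 cells 9 of the 10 measured were at least 2-fold higher and 0 as much lower, against 6.53% and 1.87% of all genes, with a median log2 ratio (5 CPM added to each level) of 0.73 beside 0.18 for all genes. Free RNA touches this count, since 5 of the 9 stood no higher in Cre AT2 cells than in Cre B and T cells. Slc26a4 was at 261 CPM in Cre AT2 cells, against 8.52 CPM in control AT2 cells, and Cre B and T cells had 1.11 CPM. Arg1 (11.1 CPM in Cre AT2 cells, 4.82 CPM in control AT2 cells) and Spdef (3.08 and 1.54 CPM) also stood above the 3.32 CPM and 0 CPM of Cre B and T cells. Chil3, which encodes the chitinase-like protein Ym1, was at 290.4 CPM in Cre AT2 cells, against 24.9 CPM in control AT2 cells, and close to its 282 CPM in Cre B and T cells. Chil4 was at 8.24 CPM in Cre AT2 cells and 0 CPM in control AT2 cells, with 10.2 CPM in Cre B and T cells. Ccl17, Ccl24, Mrc1 and Tff2, between 3.22 and 7.51 CPM in Cre AT2 cells, were likewise under their 3.81 to 12.1 CPM in Cre B and T cells. In secretory airway cells 11 of the 12 measured were at least 2-fold higher and 0 as much lower, against 23.4% and 0.797% of all genes, with a median log2 ratio of 2.99 beside 0.47. Of these 11, all but Mrc1 were above the Cre B and T cell level in Cre airway cells, Chil3 by little (323 and 282 CPM). Chil4 was at 5055 CPM in Cre airway cells, against 5.01 CPM in control airway cells, Clca1 at 3551 CPM against 48.7 CPM, and Muc5ac at 47.7 CPM against 7.36 CPM. Alox15 was at 5.91 CPM in Cre airway cells and 4.70 CPM in control airway cells. In interstitial macrophages Arg1 (236 CPM in Cre, 8.34 CPM in control) and Chil3 (1442 CPM in Cre, 187 CPM in control) were at least 2-fold higher, against 4.26% of all genes, Alox15 was at least 2-fold lower, against 1.26%, and the other 4 of the 7 measured were under 2-fold either way. The part of the 29 Cre cells of cluster 23, the Spp1 Arg1 macrophage cluster, in these levels was not tested. In alveolar macrophages 5 of 8 (Arg1, Chil3, Chil4, Ccl17 and Ccl24) were at least 2-fold higher, against 2.54% of all genes. Of these, Chil4 was at 7.37 CPM in Cre alveolar macrophages, under its 10.2 CPM in Cre B and T cells. Ccl17 was at 86.0 CPM in these macrophages, above 11.6 CPM in Cre B and T cells. Arg1 and Ccl24 were at 13.7 and 10.2 CPM, above 3.32 and 4.80 CPM. The same filter applied in airway cells, where Slc26a4 had 197 Cre and 0 control UMIs and Itln1 456 and 0. It applied in alveolar macrophages too, where Chil4 had 65 Cre and 1 control UMIs and Ccl24 90 and 1. The part of the filter in these counts, and of free RNA in the ratios of these lists, was not tested further.

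The receptor and signalling genes of the same pathway differed less. In AT2 cells 2 of the 11 measured were at least 2-fold higher, against 6.53% of all genes: Il4ra, the receptor chain shared by IL-4 and IL-13, at 38.2 CPM in Cre against 13.8 CPM in control, and Cish, a STAT-induced inhibitor, at 60.0 CPM against 24.0 CPM. Stat6 itself was at 22.8 CPM in Cre AT2 cells and 25.2 CPM in control AT2 cells. In airway cells Cish alone of the 7 measured passed 2-fold, against 23.4% of all genes, and Il4ra was at 9.86 CPM in Cre against 6.11 CPM in control. The cytokine Il13 was at 525 CPM in Cre ILC2 (group 2 innate lymphoid cells), against 89.8 CPM in control ILC2 (5.84-fold, 4.37 to 7.96), in a class where 8.46% of genes were at least 2-fold higher, while Il5 was at 513 CPM and 493 CPM. Il13 and Il5 are also markers of the ILC2 class, so their levels there depend in part on how the cells were chosen. Il33, an alarmin that activates ILC2, was at 753 CPM in Cre AT2 cells, against 235 CPM in control AT2 cells. Of the hypoxia-induced genes 0 of 9 measured passed 2-fold in AT2 cells, where 6.53% of all genes were that much higher, and 4 of 7 (Vegfa, Slc2a1, Adm and P4ha1) in airway cells, all higher, where 23.4% were. Of 3 reported binding partners of resistin-family proteins, Tlr4 was at 10.7 CPM in Cre AT2 cells and 10.2 CPM in control AT2 cells. In airway cells Tlr4 was at least 2-fold higher in Cre, where 23.4% of all genes were. Cap1 was at least 2-fold lower in ciliated cells and alveolar macrophages, against 1.62% and 2.7% of all genes there. No partner passed 2-fold in the other classes compared.

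Neutrophils were the main source of Retnlg in both libraries, with 89.3% of its UMIs in the Cre library and 95.3% in the control library, and the level was lower in Cre. It was 5544 CPM (5441 to 5649) in 1140 Cre neutrophils, against 10035 CPM (9956 to 10115) in 1984 control neutrophils, a ratio of 0.552 (0.541 to 0.564), or 1.81-fold lower. Among 6464 genes, 0.82% were at least 2-fold lower and 8.97% at least 2-fold higher. With 5 CPM added to each level, the Retnlg ratio was the 41st from the lowest of these genes. Its log2 ratio of -0.86 became -1.16 less the all-gene median of 0.30. Retnlg was the 16th most abundant gene of Cre neutrophils and the 10th of control neutrophils. Of the Cre neutrophils 286 (25.1%, 22.6 to 27.7) had 10 or more UMIs, against 1039 of the control neutrophils (52.4%, 50.1 to 54.6), with medians of 3 and 10 UMIs and highest values of 174 and 467. Cre neutrophils were also shallower, with a median depth of 1520.5 UMIs, against 2589.5 UMIs in control neutrophils. Thinned to 1000 UMIs, 16.2% of Cre and 25.4% of control neutrophils still had 10 or more Retnlg UMIs.

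The 6 genes most like Retnlg over the 44 class sums were the neutrophil genes S100a9, Asprv1, S100a8, Cxcr2, Ly6g and Mrgpra2b, with correlations between 0.85 and 0.89. Of these, S100a8 and S100a9, the subunits of calprotectin, were about as much lower in Cre neutrophils as Retnlg was. S100a8, S100a9 and Cxcr2 are also markers of the neutrophil class, so their levels there depend in part on how the cells were chosen. S100a8 was at 32191 CPM in Cre neutrophils, against 64544 CPM in control neutrophils (ratio 0.499), and S100a9 at 45249 CPM against 89716 CPM (ratio 0.504). Retnlg UMIs per 1000 S100a8 UMIs were 172 (169 to 176) in Cre neutrophils and 155 (154 to 157) in control neutrophils. Ly6g was at 107 CPM in Cre neutrophils, against 262 CPM in control neutrophils, while the chemokine receptor Cxcr2 was at 1157 CPM in Cre, against 856 CPM in control. Of 18 mature neutrophil genes, 3 (Wfdc21, S100a8 and Ifitm1) were at least 2-fold lower in Cre and 0 higher, against 0.82% of all genes lower and 8.97% higher. Of 8 measured genes in a list for immature neutrophils, Ly6g was at least 2-fold lower and Chil3 as much higher. Chil3 was at 282 CPM in Cre B and T cells and 17.8 CPM in control ones. The part of free RNA in its neutrophil ratio was not tested. The cytokine Il1b was at 16204 CPM in Cre neutrophils and 16006 CPM in control neutrophils, and Mmp8, a collagenase, at 842.5 and 841 CPM.

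Retnlg was graded over the neutrophil clusters, and Cre cells were lower within each cluster described here. It was highest in cluster 35, which carried the granule transcripts Camp, Ngp and Ltf of immature neutrophils, at 14827 CPM in 47 Cre cells and 24892 CPM in 117 control cells. Cluster 8, led by Stfa2 and Stfa3, had 10889 CPM in 241 Cre cells and 14161 CPM in 617 control cells. Cluster 37 had 3659 CPM in 40 Cre cells and 6601 CPM in 60 control cells. Cluster 1, the largest of these and rich in Il1b (20262 CPM in Cre and 21767 CPM in control), had 2753 CPM in 788 Cre cells and 4124 CPM in 1148 control cells. Over these 4 clusters the ratios ran from 0.554 in cluster 37 to 0.769 in cluster 8. The share of neutrophils with 10 or more UMIs was 74.5% in Cre and 96.6% in control in cluster 35, and 12.7% in Cre and 36.5% in control in cluster 1. The order of clusters 35, 8, 37 and 1 was the same in both libraries. Mmp8, nearly equal between the libraries over all neutrophils, was higher in Cre within each of these clusters. It was at 3593 CPM in Cre and 3059 CPM in control in cluster 35, and 1385 and 971 CPM in cluster 8. In clusters 37 and 1 it was at 425 and 320 CPM in Cre, against 390 and 226 CPM in control.

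**Figure D4:**
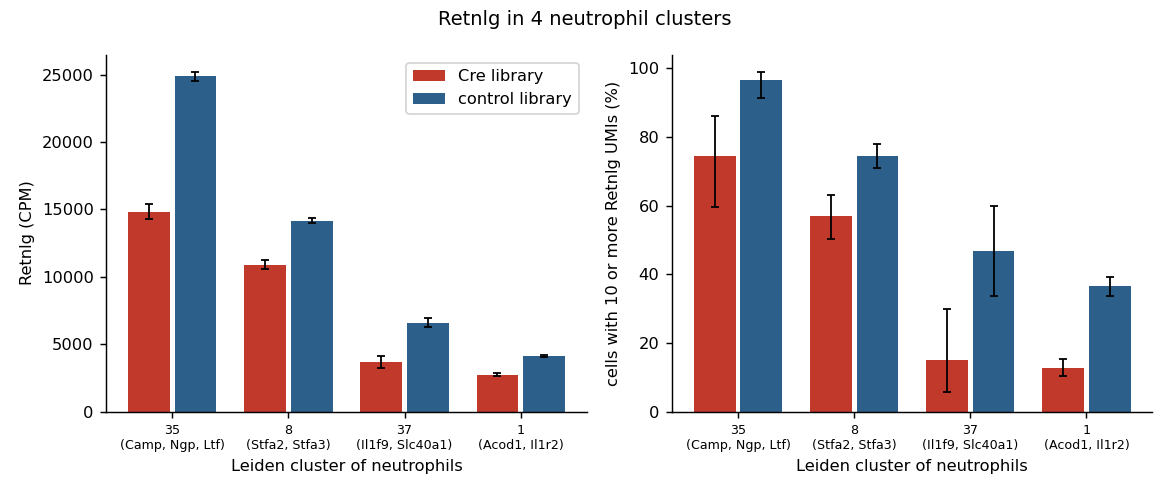
Retnlg in 4 Leiden clusters of neutrophils, as CPM of the cluster sum (left) and as the percentage of cells with 10 or more Retnlg UMIs (right), with the Cre library in red left of the control library in blue and 95% counting intervals. The level is highest in cluster 35 (14827 CPM in Cre and 24892 CPM in control) and lowest in cluster 1, and the Cre bar is lower in each cluster.

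Neutrophils with more Retnlg had more Mmp8 and Cd177 transcripts in both libraries. The split pooled all clusters, and clusters 35 and 8, the highest in Retnlg, were also the highest in both of these genes. Cd177 was at 1478 and 154 CPM in Cre clusters 35 and 8, against 21.0 CPM in Cre cluster 1. The part of the clusters in the split was not tested. The cells above the median had 9945 CPM of Retnlg and those below it 619 CPM in Cre (570 cells each), and 16620 CPM and 1623 CPM in control (992 cells each). Mmp8 was 4.82-fold higher in the high-Retnlg Cre cells (1346 and 279 CPM) and 4.84-fold higher in the high-Retnlg control cells (1291 and 267 CPM), and Cd177, a surface protein of neutrophils, was 2.37-fold and 4.53-fold higher. Stfa1, Wfdc21, Mgst1 and S100a8 were the other leading genes in Cre, and Ccl5, Krt83, Ly6c2 and Itgb2l in control. Clec4n, the receptor dectin-2, was lower in the high cells of both, 3.14-fold in Cre and 2.75-fold in control. In Cre the cytokine genes Il1a (5.73-fold) and Ccl3 (3.8-fold) and the adhesion gene Icam1 (3.36-fold) were also lower, and in control Csf1 was lower (2.90-fold). With only the 285 highest and 285 lowest Cre cells compared, 4 of the 6 leading higher and 3 of the 6 lower genes recurred. In control, with 496 cells on each side, 4 and 2 recurred.

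Outside neutrophils, Retnlg was found in secretory airway cells of both libraries, and 1 control cell weighs on the comparison. The level was 76.9 CPM (69.8 to 84.5) in Cre airway cells and 79.6 CPM (72.8 to 86.8) in control airway cells, a ratio of 0.966 (0.848 to 1.10) that became 0.651 with Scgb1a1 and other abundant genes out of the totals and 1.15 with the B and T cell level subtracted. A single control cell, with 216 Retnlg, 568 S100a8 and 3 Csf3r UMIs, held 216 of the 508 control UMIs, and the next highest had 38. Without it, a choice made after the values were seen, the control level was 46.2 CPM (41.0 to 51.8) and the ratio 1.66 (1.43 to 1.94). There were 11 Cre and 8 control airway cells with 10 or more Retnlg UMIs. The 11 Cre cells held 234 Retnlg UMIs beside only 6 UMIs of S100a8 and 0 of Csf3r, the receptor that marks neutrophils, and 6 of them had no S100a8 UMI. The 8 control cells held 368 Retnlg UMIs beside 1441 of S100a8 and 22 of Csf3r, and without the highest cell the other 7 held 152 beside 873 and 19. Of the 11 Cre cells 10 also had 10 or more Retnla UMIs, with a median of 1468 over the 11. Over whole classes, Retnlg UMIs per 1000 S100a8 UMIs were 3043 (2510 to 3707) in Cre airway cells, against 172 in Cre neutrophils and 151 in Cre B cells, and 259 in control airway cells, against 155 in control neutrophils and 155 in control B cells.

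Cre airway cells were then binned by their Retnla UMIs, after the values were seen. Retnlg was at 32.3 CPM in 50 cells with under 10 Retnla UMIs, 27.2 CPM in 56 cells with 10 to 99, 65.0 CPM in 85 cells with 100 to under 1000, and 149 CPM (130 to 169) in 47 cells with 1000 or more. In the last bin 70.2% of cells had a Retnlg UMI, and S100a8 was at 14.8 CPM. In control airway cells Retnlg was at 43.1 CPM, 176 CPM and 66.7 CPM in the first 3 bins, S100a8 was at 239, 469 and 298 CPM, and no cell had 1000 Retnla UMIs. The control cell named above held 216 of the 254 Retnlg UMIs of the middle bin, which without it had 27.5 CPM (19.4 to 37.7) of Retnlg and 78.8 CPM of S100a8. The last Cre bin held 232 Retnlg UMIs beside 105263 of Retnla, 2.20 per 1000. The part of Retnla reads assigned to Retnlg in this was not tested. Over whole classes, Cre AT2 cells had 0.799 Retnlg UMIs per 1000 Retnla UMIs, against 3.02 in Cre airway cells. Binned in the same way, Cre AT2 cells had 5.27, 6.13, 16.8 and 86.8 CPM of Retnlg, also highest with 1000 or more Retnla UMIs. That last bin held 21 AT2 cells, of which 23.8% had a Retnlg UMI. They had 32 Retnlg UMIs beside 27800 of Retnla (1.15 per 1000) and 0 of S100a8.

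**Figure D5:**
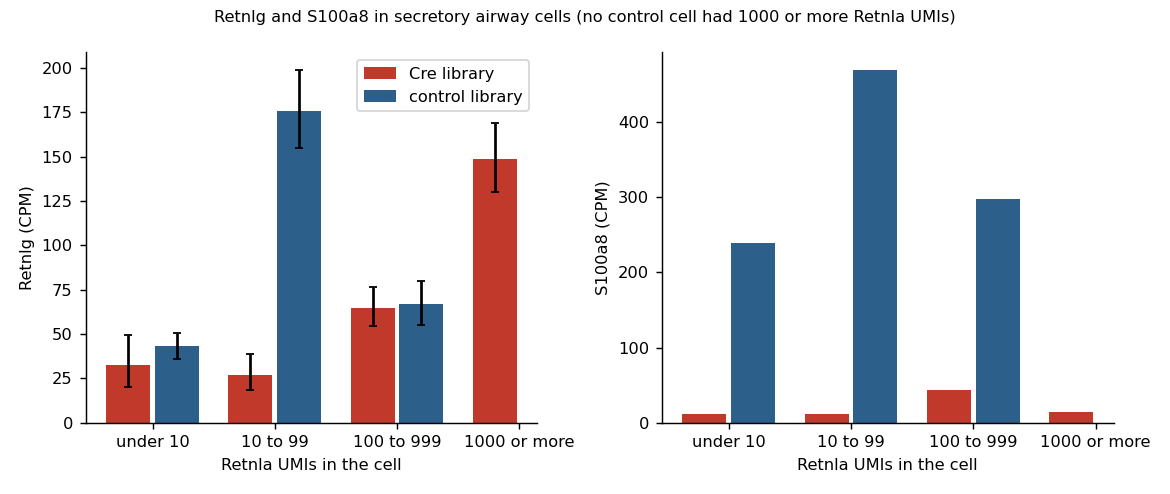
Retnlg (left, CPM with 95% counting intervals) and the neutrophil transcript S100a8 (right, CPM) in secretory airway cells binned by their Retnla UMIs, with Cre in red left of control in blue. In Cre the highest Retnlg (149 CPM) is in cells with 1000 or more Retnla UMIs, where S100a8 is at 14.8 CPM; the tall control bars at 10 to 99 Retnla UMIs (176 CPM of Retnlg and 469 CPM of S100a8) rest on 1 cell, without which they are 27.5 and 78.8 CPM.

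In the remaining classes Retnlg rested on few cells. In AT2 cells it was at 11.8 CPM in Cre and 35.9 CPM in control, where 1 cell held 367 of the 514 UMIs. In alveolar macrophages it was at 3.17 CPM in Cre, with 0 cells at 10 or more UMIs, and 97.0 CPM in control, with 4 such cells. In interstitial macrophages it was at 5.58 CPM in Cre, with 0 such cells, and 99.5 CPM in control, with 6. In control alveolar and interstitial macrophages Retnlg UMIs per 1000 S100a8 UMIs were 209 and 165, near the 155 of control neutrophils.

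The other 2 genes of the family were far lower. Retn was at 25.3 CPM (18.8 to 33.4) in Cre neutrophils and 27.8 CPM (23.8 to 32.3) in control neutrophils, a ratio of 0.912 (0.651 to 1.26). Retnlb had 21 UMIs in Cre airway cells (3.76 CPM, 2.33 to 5.75) and 3 UMIs in control airway cells (0.470 CPM, 0.0969 to 1.37). Whether Retn shared cells with Retnlg, or Retnlb with Retnla, was not tested.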

How the data were processed

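The 2 libraries were made with Chromium 3' v3 chemistry from total lung cells, per the labels. The authors deposited UMI counts for each barcode, which are whole numbers and were not normalized. Cell Ranger 3.1.0, STAR and mm10 are named in the submitters' processing notes, and the matrix header of the deposited counts names software version 3.0.0; what each did, and the annotation, is not given in the sources used here.

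Barcodes with under 200 genes, under 500 UMIs or over 20% mitochondrial UMIs were dropped, and Scrublet in scanpy 1.11.5 (expected rate 6%) removed 454 Cre (2.70%) and 420 control (3.09%) barcodes as doublets. Free RNA was not subtracted. Each cell took the class with the highest marker score (at least 0.2, by a margin of 0.05, with 3 markers found); 50 Leiden clusters (leidenalg 0.10.2, resolution 1.5), named by the same markers, served as the alternative, and 93.3% of cells had the same class in both. Intervals are exact Poisson, Clopper-Pearson and conditional Poisson ratio intervals (scipy 1.17.1) for 2 libraries without replicates. In lists and ranks, genes with 50 or more UMIs in a class, over both libraries together, were compared. They were called past 2-fold on the plain ratio. Log2 ratios and the ranks of the members used a pseudocount of 5 CPM. Where the denominator had 0 UMIs, 3 counts were put in its place and the ratio is a lower bound. Named genes are the members, the 6 most correlated with each member among genes with 500 or more UMIs, the 6 highest and 6 lowest between cells above and below the median (50 CPM and 200 UMIs), leaving out predicted genes and those of mitochondria, ribosomes, haemoglobin, immunoglobulins and T cell receptors, and members of fixed lists. Muc5b, Sox9 and the other genes named outside this rule were chosen after their values were seen, or serve as markers. Promoters were aligned with Biopython 1.88. The method was tested on simulated data, in which 100% of 200 changed genes passed 2-fold. Of the intervals, 95.7% in AT2 cells (11004 genes) and 95.8% in neutrophils (6184 genes) held the simulated ratio. The changed genes were set well past 2-fold and the counts were Poisson draws. This checks the calculation only, and not the spread between cells or mice. The members, markers and lists were chosen with earlier results of these data known.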

Additional observations from a re-analysis of the deposited data

How the results depend on the processing

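No paired analysis was possible because each genotype had 1 library. Among the 10 main results, the Cre over control ratios kept their direction under the alternatives run. The other main results are shares of cells within 1 library, which have no direction. The airway ratio of Retnlg, which is not a main result, crossed 1. Of 85 alternatives to the 10 main results, 43 moved the value by less than its counting interval and 42 by more. The AT2 ratio of Retnla was 249.8 with cells thinned to 1000 UMIs, 302 with the B and T cell rate subtracted, 254 with Sftpc, Scgb1a1, haemoglobin and mitochondrial genes out of the class totals, and 228 within cluster 0. The secretory airway ratio was 12.7 thinned and 7.70 without those abundant genes, Scgb1a1 standing at 411989 CPM in Cre and 595113 CPM in control airway cells. The interstitial macrophage ratio was 2.21 with Leiden clusters, 3.18 at 500 genes and 10% mitochondrial UMIs, 3.36 thinned and 2.47 with the B and T cell rate subtracted. The neutrophil ratio of Retnlg was 0.567 at the stricter filter, 0.626 thinned, and 0.668, 0.769 and 0.596 within clusters 1, 8 and 35. Shares of cells depend on the threshold. At 3, 5, 20 and 50 UMIs and at the Poisson limit of the B and T cell rate, Retnla was found in 77.3%, 72.0%, 56.7%, 42.1% and 70.4% of Cre AT2 cells, and in 3.06%, 1.84%, 0.408%, 0.136% and 3.54% of control AT2 cells. In Cre airway cells the share was 90.3%, 85.3% and 64.7% at 3, 5 and 50 UMIs, and in control airway cells 55.9%, 30.6% and 24.2% at 3, 20 and 50 UMIs and 52.7% at the Poisson limit. Retnlg was found, in the same order of 5 thresholds, in 54.0%, 40.1%, 12.7%, 4.12% and 64.4% of Cre neutrophils, and in 79.3%, 69.4%, 34.0%, 15.7% and 84.2% of control neutrophils. The Retnlg ratio in airway cells was 0.651 without the abundant genes, against 0.966 with them, 1.04 with Leiden clusters, 1.12 thinned, 1.15 with the B and T cell rate subtracted and 1.66 without the 1 control cell that held 216 of 508 UMIs, so its side of 1 is not settled. The ratio without that cell, the ratios within single clusters, without shared barcodes and the airway and interstitial macrophage splits were chosen after seeing the data. Depth limits the control shares of low classes, and 1 pooled library per genotype gives no spread between mice.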
